A study of Homo sapiens with 6 samples.

Results

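The genes described here are those of the insulin-like growth factor (IGF) system that bind or receive the ligands: the binding proteins IGFBP1 to IGFBP7 and the receptors IGF1R, IGF2R and INSR. They were selected by gene symbol, which gave 10 of the 58735 genes in the deposited table, 7 binding proteins and 3 receptors. The set was proposed with earlier results from these same 6 libraries known, so the differences below describe the genes and are not independent evidence about them. RNA sequencing had been carried out on SK-MES-1, an established human line from a lung squamous cell carcinoma. The control group is labelled NC, and the groups si1 and si2 had a transient knockdown of KRT6A, a keratin of stratified epithelia. Each group had 2 libraries, all groups used the same cell line, and the labels name no other treatment, time or dose and do not say what separates si1 from si2. The labels do not say that replicate libraries came from separate cultures, so the p-values may measure technical spread only.

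IGF1 and IGF2 are small secreted growth factors that act through the tyrosine kinase IGF1R, which signals by way of insulin receptor substrates to the PI3K-AKT and RAS-MAPK branches. INSR, the insulin receptor, can pair with IGF1R and can also bind IGF2, whereas IGF2R, the cation-independent mannose 6-phosphate receptor, has no kinase domain, carries lysosomal enzymes and removes IGF2 from the cell surface. Most IGF outside cells is held by the binding proteins, which delay its breakdown and keep it from the receptor until a protease cuts them. IGFBP3 is the main carrier in blood, and IGFBP3 and others also have actions that do not need IGF.

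The 6 libraries held 14948607 to 17401392 reads, recovered from the deposited values, and 12319 genes had a mean of at least 1 FPKM (fragments per kilobase of gene, scaled to sequencing depth) and were tested. KRT6A had 0 reads in all 6 libraries, NC included, so its level cannot check the knockdown labels. RAB39B, the small GTPase gene named in the title of the series, stood at 1.90 and 2.63 FPKM in NC, 0.84 and 0.57 in si1 and 1.30 and 0.75 in si2. Its difference from NC in log2(FPKM + 1) was -0.93 in si1 and -0.69 in si2 (limma adjusted p = 0.0178 and 0.0405). Between si2 and si1 it was 0.24 (limma adjusted p = 0.38). Of 12 markers of squamous and basal epithelium only TP63 and PKP1 reached a mean of 1 FPKM, and DSG3 had 0 reads. TP63 averaged 6.11 FPKM in NC and 11.9 in si2, and PKP1 went the other way, from 19.0 to 9.91. KRT5 and KRT14, which define basal cells, did not pass 0.0268 FPKM in any library. Of 6 general epithelial markers 5 reached a mean of 1 FPKM, CDH1 being the exception. The summed level of this list was 355 to 379 FPKM in NC, 370 to 376 in si1 and 264 to 277 in si2. The markers did not move together. From NC to si2 the means of KRT7 (180 and 112 FPKM), KRT19 (91.0 and 55.7) and KRT8 (44.4 and 40.3) were lower. Those of KRT18 (47.4 and 57.5) and EPCAM (3.77 and 5.14) were higher. Of 7 fibroblast markers 2 reached that mean, and COL1A2 had 0 reads. Their sums were 17.7 to 18.0 FPKM in NC, 20.5 to 25.5 in si1 and 23.4 to 24.0 in si2. Most of each sum was COL1A1, with means of 15.4, 20.4 and 20.8 FPKM in the same order. No leukocyte marker (0 of 5) and no endothelial marker (0 of 4) reached 1 FPKM. The part of these marker shifts in the results below was not tested. In bulk RNA, fewer cells expressing a gene and less RNA per cell cannot be told apart.

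IGFBP3 and IGFBP4 were higher than NC in both knockdown groups, and IGFBP1 was lower than NC in si1 and higher in si2. IGFBP7 was lower than NC in si2. None of the 3 receptors was called against NC. In si2, 2 of them reached an unadjusted limma p under 0.05. The share of all genes tested at that threshold was not computed, and 29% passed the stricter adjusted threshold. Of the 10 genes 8 reached a mean of 1 FPKM and were tested, and IGFBP2 and IGFBP5 did not. A gene is called changed here when limma's adjusted p, over all genes tested, was under 0.05. In si1 against NC, 2 of the 8 were called higher and 1 lower, where 22.4% of all genes tested were called. In si2 against NC, 3 were called higher and 1 lower, beside 29% of all genes tested. With si1 and si2 together against NC, 2 were called higher and 1 lower, beside 20.5% of all genes (8.73% higher and 11.8% lower). In si2 against si1, 3 were called higher and 2 lower, beside 38.5% of all genes. The median log2 fold change of the 8 genes was 0.06 in si1 and 0.32 in si2, where that of all genes tested was -0.01 and 0.00. Without regard to sign, the median was 0.172 in si1, 0.337 in si2 and 0.259 in si2 against si1. For all genes tested it was 0.184, 0.209 and 0.249 in the same order. These comparisons share the NC libraries or the knockdown libraries.

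**Figure D1:**
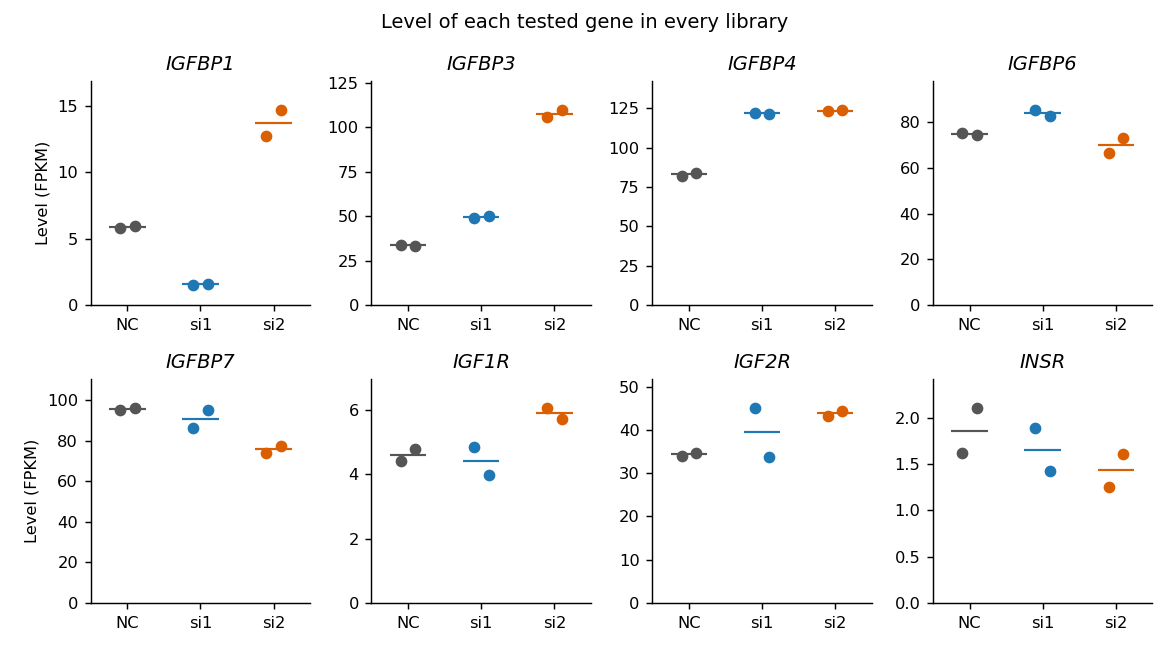
Level of each of the 8 tested genes in FPKM (vertical axes from 0, a separate scale for each gene) in the NC, si1 and si2 libraries. Points are libraries and horizontal lines are group means of 2 libraries. IGFBP1 has its lowest values in si1 (1.55 and 1.57) and its highest in si2 (12.7 and 14.6), whereas IGFBP3 is lowest in NC and highest in si2.

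FPKM corrects for the deposited gene length, such as 4571 bases for IGFBP3 and 1930 for IGFBP7. The ranks between genes depend on that length, and the SDs do not cover a transcript of another length. In NC the order was IGFBP7 at 95.5 ± 0.791 FPKM (SD, n = 2), IGFBP4 at 83.1 ± 1.28, IGFBP6 at 74.7 ± 0.539, IGF2R at 34.4 ± 0.574, IGFBP3 at 33.7 ± 0.361, IGFBP1 at 5.88 ± 0.0681, IGF1R at 4.60 ± 0.279 and INSR at 1.86 ± 0.345. IGF2R and IGFBP3 were the only neighbours in that order whose means differed by less than the sum of their SDs. In si1 the order became IGFBP4, IGFBP7, IGFBP6, IGFBP3, IGF2R, IGF1R, INSR and IGFBP1. There IGFBP7 and IGFBP6 lay within that spread of each other, and INSR and IGFBP1 had overlapping libraries. In si2 the order was IGFBP4, IGFBP3, IGFBP7, IGFBP6, IGF2R, IGFBP1, IGF1R and INSR, with IGFBP7 and IGFBP6 within the spread of each other. IGFBP3 thus moved from the fifth of the 10 genes in NC to the second in si2. Among all 58735 genes its rank by FPKM was 1212 in NC, 726 in si1 and 251 in si2.

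IGFBP1 (ENSG00000146678, chr7:45888357-45893668, plus strand, hg38) encodes a secreted binding protein known as a liver product repressed by insulin. It stood at 5.83 and 5.92 FPKM in NC, 1.55 and 1.57 in si1 and 12.7 and 14.6 in si2. The 3 groups did not overlap, and NC lay between si1 and si2. The mean was 3.76-fold lower in si1 than in NC and 2.32-fold higher in si2. On the log2(FPKM + 1) scale used for all tests, the difference from NC was -1.42 in si1 (SE 0.0908, limma adjusted p = 1.81e-04). In si2 it was 1.09 (SE 0.0908, limma adjusted p = 4.71e-04). IGFBP1 differed most between the knockdown groups of the 8 genes, at 2.51 for si2 against si1 (limma adjusted p = 1.64e-05). Averaged over si1 and si2 the opposite differences left -0.17 (limma adjusted p = 0.18), which was called only with a pseudocount of 0.1 (adjusted p = 0.0435) among 12 alternatives. The gene had 42 to 366 reads per library, and adding 1 FPKM understates its fall in si1. On a log2 scale of depth-scaled reads with 0.5 reads added, that difference was -1.88.

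IGFBP3 (ENSG00000146674, chr7:45912245-45921874, minus strand) encodes the main IGF carrier of blood and is a known target of p53 and TGF-beta. It stood at 33.9 and 33.4 FPKM in NC, 49.1 and 49.97 in si1 and 106 and 109 in si2. The groups did not overlap, and the order was NC, si1, si2. The mean was 1.47-fold higher than NC in si1 and 3.20-fold higher in si2. The log2 difference from NC was 0.54 in si1 (SE 0.0552, limma adjusted p = 9.94e-04) and 1.65 in si2 (limma adjusted p = 3.18e-05). Between the knockdown groups it was 1.10 in favour of si2 (limma adjusted p = 4.36e-05). Against NC, both knockdown groups averaged gave 1.10 (limma adjusted p = 1.39e-04). That last call was lost when the 4 knockdown libraries were fitted as 1 group (adjusted p = 0.263), where the gap between si1 and si2 counts as error.

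IGFBP4 (ENSG00000141753, chr17:40443461-40457731, plus strand) encodes a binding protein that inhibits IGF action until PAPPA cleaves it. It stood at 82.2 and 84.0 FPKM in NC, 122 and 121 in si1 and 123 and 124 in si2. All 4 knockdown libraries lay above both NC libraries. The mean was 1.46-fold higher than NC in si1 and 1.49-fold higher in si2. The log2 difference was 0.54 in si1 (SE 0.0498, limma adjusted p = 6.88e-04) and 0.56 in si2 (limma adjusted p = 5.35e-04). Between si2 and si1 it was 0.02, with a 95% interval from -0.10 to 0.14 (limma adjusted p = 0.772). IGFBP4 was the only one of the 8 tested genes that was called against NC in both knockdown groups and called in the contrast of both together with the 4 knockdown libraries as 1 group (adjusted p = 0.0399).

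The promoter windows of IGFBP3 and IGFBP4 are shown because both genes were higher in si1 and in si2 and each window holds a TATA-type sequence close to the start. The start of IGFBP3 in RefSeq lies inside the span given above. The windows run from 250 bases before to 50 bases after the start in RefSeq (GRCh38.p14). Of the 10 genes 8 had a window, and IGFBP1 and IGFBP7 had none. The IGFBP3 window is chr7:45921223-45921522 on the minus strand, with TATATA in capitals, whose first base lies 30 bases before the start. The IGFBP4 window is chr17:40443200-40443499 on the plus strand, with TATAAA in capitals, 29 bases before the start.

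IGFBP3: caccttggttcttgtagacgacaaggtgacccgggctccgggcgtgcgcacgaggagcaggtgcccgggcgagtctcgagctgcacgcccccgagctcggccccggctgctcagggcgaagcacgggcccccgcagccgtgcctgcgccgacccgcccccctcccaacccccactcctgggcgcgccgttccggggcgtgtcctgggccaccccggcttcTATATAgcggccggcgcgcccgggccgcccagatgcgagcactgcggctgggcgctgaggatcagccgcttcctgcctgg

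IGFBP4: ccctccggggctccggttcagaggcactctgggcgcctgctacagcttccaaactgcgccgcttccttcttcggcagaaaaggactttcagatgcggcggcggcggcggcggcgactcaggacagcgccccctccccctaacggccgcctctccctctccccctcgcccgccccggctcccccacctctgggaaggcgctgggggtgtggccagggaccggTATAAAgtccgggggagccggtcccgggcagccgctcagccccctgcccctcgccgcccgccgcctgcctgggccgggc

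TATAAA, searched on both strands over the whole window, was present in 11.5% of all 35116 RefSeq promoter windows of this length, and TATATA, which can overlap it, in 3.99%. Neither sequence was found in the windows of IGFBP2, IGFBP5, IGFBP6, IGF1R, IGF2R or INSR. The IGFBP3 and IGFBP4 windows were 74.7% and 74.0% G or C, beside a median of 58.7% over all windows. The receptor windows were higher still, at 79.7% for IGF1R, 78.7% for IGF2R and 78.3% for INSR. The GC box GGGCGG occurred 2 times each in the IGFBP3 and IGFBP4 windows, and 45.0% of all windows hold at least 1. It occurred 2 times for IGF1R, 6 for IGF2R and 4 for INSR. These matches describe the letters and do not show binding.

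IGFBP1 and IGFBP3 lie tail to tail on chromosome 7, with 18.576 kb between their ends and 0 genes of any type between them in the table. Only IGFBP3 was called higher in both knockdown groups. The ratio of IGFBP3 to IGFBP1 FPKM was 5.73 ± 0.128 for NC (SD, n = 2), 31.7 ± 0.123 for si1 and 7.91 ± 0.618 for si2. The nearest tested coding gene on the IGFBP1 side was ADCY1, an adenylate cyclase gene 165.24 kb away. ADCY1 stood at 1.74 and 1.68 FPKM in NC, 0.863 and 0.710 in si1 and 1.56 and 1.77 in si2. Like IGFBP1 it was lower in si1 (log2 difference -0.60, limma adjusted p = 0.0219), and in si2 its difference was -0.03 (limma adjusted p = 0.911). On the IGFBP3 side the nearest was TNS3, a tensin gene of focal adhesions 1353.28 kb away. TNS3 stood at 41.0 and 40.7 FPKM in NC, 59.0 and 50.1 in si1 and 36.3 and 38.1 in si2. It was higher in si1 (0.40, limma adjusted p = 0.0161), and in si2 its difference was -0.13 (limma adjusted p = 0.287).

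IGFBP6 (ENSG00000167779, chr12:53097436-53102345, plus strand) encodes a binding protein with a preference for IGF2. It stood at 75.0 and 74.3 FPKM in NC, 85.2 and 82.5 in si1 and 66.3 and 73.2 in si2. The si1 libraries lay above NC and the si2 libraries below it. Neither difference from NC was called, at 0.16 in si1 (SE 0.0647, limma adjusted p = 0.116) and -0.10 in si2 (limma adjusted p = 0.296). The difference of si2 from si1 was -0.26 (limma adjusted p = 0.0177). That call was lost without si1 replicate 1, without si2 replicate 1 and with no filter on low values, with values of -0.24, -0.19 and -0.26 and an adjusted p of up to 0.127.

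IGFBP7 (ENSG00000163453, chr4:57030773-57110385, minus strand) encodes a matrix-bound member of the family that binds IGF weakly. It stood at 94.97 and 96.1 FPKM in NC, 86.2 and 94.8 in si1 and 74.0 and 77.3 in si2. The si2 libraries were the lowest, and si1 replicate 2 lay just under NC. The log2 difference from NC was -0.33 in si2 (SE 0.0643, limma adjusted p = 0.0102) and -0.08 in si1 (limma adjusted p = 0.429). The si2 call was lost without NC replicate 1, NC replicate 2 or si2 replicate 1, at -0.34, -0.32 and -0.30 and an adjusted p of up to 0.0744. Between si2 and si1 the difference was -0.25 (limma adjusted p = 0.0196), a call lost without si2 replicate 1 or 2 and with no filter on low values. Together the knockdown groups gave -0.21 (limma adjusted p = 0.0417), a call lost in 7 of 12 alternative analyses. IGFBP7 overlaps POLR2B on the opposite strand by 396 bases. POLR2B stood at 35.9 to 41.8 FPKM, and no source used here says whether the counting used strand.

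IGFBP2 and IGFBP5, which lie 7.668 kb apart on chromosome 2, were at or near the limit of detection. IGFBP2 (ENSG00000115457, chr2:216632828-216664436) stood at 0.126 and 0.107 FPKM in NC, 0.0898 and 0.0868 in si1 and 0.0531 and 0.0694 in si2. These values rest on 10, 9, 7, 7, 4 and 5 reads, and the exact 95% Poisson interval was 4.80 to 18.4 reads for the highest and 1.09 to 10.2 for the lowest. Differences of the size seen in IGFBP2 were therefore not resolved at this depth. IGFBP5 (ENSG00000115461, chr2:216672105-216695525) had 0 reads in 5 libraries and 2 reads, or 0.0205 FPKM, in si2 replicate 2. Taking 3 reads as the limit that a count of 0 allows, IGFBP5 was under 0.0265 to 0.0295 FPKM in those 5 libraries. These intervals and limits cover counting error only.

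IGF1R (ENSG00000140443, chr15:98648539-98964530, plus strand), the signalling receptor, stood at 4.40 and 4.80 FPKM in NC, 4.85 and 3.97 in si1 and 6.06 and 5.73 in si2. The si2 libraries lay above the other 4, and NC and si1 overlapped. The log2 difference from NC was -0.05 in si1 (SE 0.104, limma adjusted p = 0.749) and 0.30 in si2 (limma adjusted p = 0.0697). The si2 value passed the threshold on the scale of depth-scaled reads (0.36) and without si1 replicate 1 or si1 replicate 2 (0.30 in each, with the spread re-estimated). Between si2 and si1 it was 0.35 (limma adjusted p = 0.0334), a call lost in 6 of 11 alternatives. Over all 11 the value ran from 0.24 to 0.47 and the adjusted p reached 0.143; the call was lost without each library other than si1 replicate 1, and with no filter on low values.

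IGF2R (ENSG00000197081, chr6:159969099-160113507, plus strand) was the most abundant of the 3 receptors in every library. It stood at 34.0 and 34.8 FPKM in NC, 45.1 and 33.8 in si1 and 43.3 and 44.4 in si2. The si1 libraries differed more from each other than the NC and si2 means did, with replicate 1 at the level of si2 and replicate 2 at the level of NC. The log2 difference from NC was 0.18 in si1 (SE 0.122, limma adjusted p = 0.337) and 0.34 in si2 (limma adjusted p = 0.0761). Without si1 replicate 2 the si1 difference was 0.38 and was called, and without si1 replicate 1 it was -0.02. The si2 difference was called without si1 replicate 1 or 2 and on the scale of depth-scaled reads (0.34, 0.34 and 0.35). Leaving out an si1 library changed only the estimate of the spread there. Without si1 replicate 1 the difference of si2 from si1 rose from 0.16 to 0.36 and was called. The transcribed pseudogene AL353625.1 lies within IGF2R on the same strand and stood at 0.607 to 1.77 FPKM.

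INSR (ENSG00000171105, chr19:7112255-7294034, minus strand) stood at 1.61 and 2.10 FPKM in NC, 1.88 and 1.42 in si1 and 1.25 and 1.61 in si2. The NC and si1 libraries overlapped, and the si2 libraries lay below both NC libraries, replicate 2 only just. The log2 difference from NC was -0.11 in si1 (95% interval -0.49 to 0.27, limma adjusted p = 0.68) and -0.23 in si2 (95% interval -0.61 to 0.15, limma adjusted p = 0.319). INSR was not called in any contrast or alternative. At an unadjusted limma p under 0.05, 0 of the 3 receptors passed in si1 against NC and 2 in si2 against NC. The stricter adjusted threshold was passed by 22.4% of all genes tested in si1 and 29% in si2. The share of all genes at the unadjusted threshold was not computed, so these counts have no like share beside them and nothing is read from them.

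**Figure D2:**
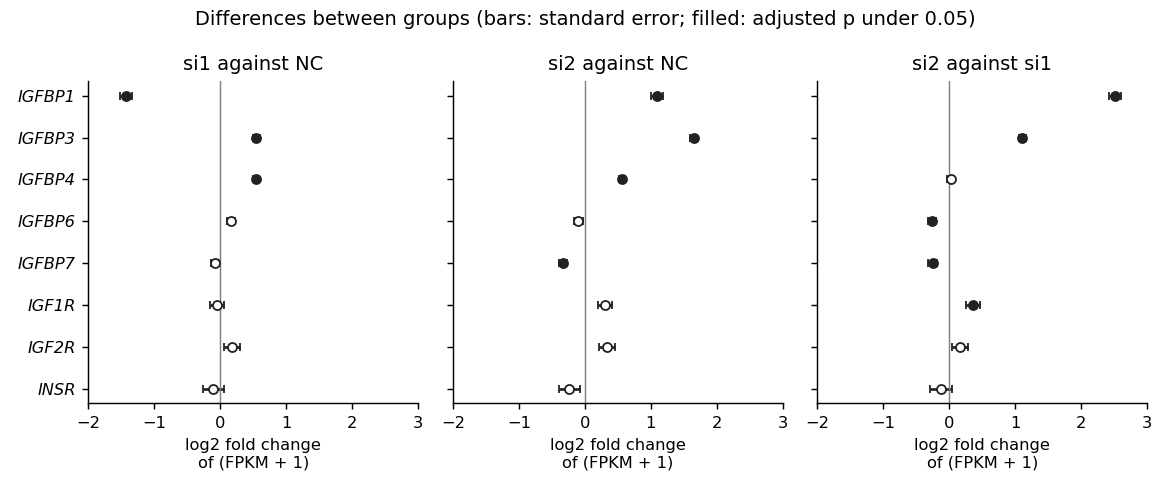
Log2 fold change of (FPKM + 1) on the horizontal axis for the 8 tested genes, for each knockdown group against NC and for si2 against si1. Points are limma estimates, bars are standard errors, and filled points have an adjusted p under 0.05. IGFBP1 lies at -1.42, 1.09 and 2.51, and the 3 receptors are filled once, for IGF1R in si2 against si1.

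Summed over the 7 binding proteins, the mRNA level was 292 and 294 FPKM in NC, 344 and 350 in si1 and 382 and 398 in si2. The sums did not overlap between groups. The make-up of the sum differed as well. IGFBP3 gave 11.5% ± 0.171 of it for NC (SD, n = 2), 14.3% ± 0.00099 for si1 and 27.6% ± 0.151 for si2. IGFBP7 gave 32.6% ± 0.134 in NC, 26.1% ± 1.43 in si1 and 19.4% ± 0.0267 in si2. IGFBP4 gave 28.4% ± 0.318, 35.0% ± 0.591 and 31.6% ± 0.863 in the same order, and IGFBP6 gave 25.5% ± 0.291, 24.1% ± 0.841 and 17.9% ± 0.727. IGFBP1 stayed a small share, at 2.01% ± 0.0148 in NC, 0.450% ± 0.00172 in si1 and 3.50% ± 0.254 in si2. These are shares of mRNA per gene length and not of protein.

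**Figure D3:**
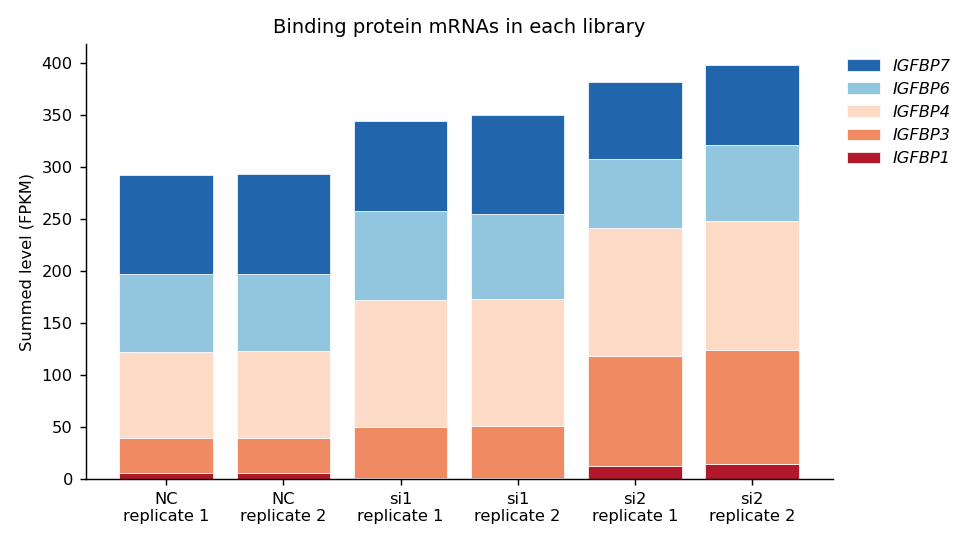
Summed level of the binding protein mRNAs in each library in FPKM (vertical axis from 0), divided by gene. IGFBP2 and IGFBP5, each under 0.13 FPKM, are too low to be drawn. The sum is lowest in NC (292 and 294) and highest in si2 (382 and 398), and the IGFBP3 segment grows from 11.5% to 27.6% of it.

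The ligands were nearly absent from the RNA of these cells. IGF1 and INS had 0 reads in all 6 libraries. IGF2 stood at 0.0600 and 0.0979 FPKM in NC, 0.0789 and 0.0762 in si1 and 0.00907 and 0.0758 in si2, on 1 to 12 reads. IGFALS, the subunit that joins IGF and IGFBP3 in the large carrier complex of blood, had reads in NC replicate 2 only (0.0482 FPKM). None of these 4 genes was tested.

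Other genes of the system were taken from 8 lists of 79 genes in all, of which 64 were tested. In si1 against NC, 4 of the 64 were called higher and 19 lower, beside 9.47% and 12.9% of all genes tested. In si2 against NC, 10 were called higher and 11 lower, beside 13.6% and 15.4% of all genes. In si2 against si1, 22 were called higher and 9 lower, beside 19.9% and 18.6%. The median log2 difference of the 64 genes was -0.11 in si1 and 0.07 in si2. On the scale of depth-scaled reads the si1 calls were 9 higher and 21 lower, beside 13.4% and 16.2% of all genes. The si1 count of 23 fell to 11 without NC replicate 1 and to 12 without NC replicate 2, where the share over all genes fell from 22.4% to 9.04% and 10.2%. The si2 count of 21 fell to 10, 7, 9 and 10 without NC replicate 1, NC replicate 2, si2 replicate 1 and si2 replicate 2, where the share over all genes fell from 29% to 13.5%, 12.1%, 13.7% and 16.2%.

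The proteases that cut binding proteins, with their inhibitors, numbered 11 tested genes. Of these, 6 were called lower and 1 higher in si1, and 3 lower and 1 higher in si2. Among all genes tested, 22.4% were called in si1 and 29% in si2. PLAU, the urokinase gene, stood at 90.5 and 96.1 FPKM in NC, 27.1 and 27.4 in si1 and 97.0 and 94.9 in si2. The si1 libraries were far below the rest, with a log2 difference from NC of -1.74 (SE 0.0577, limma adjusted p = 3.35e-05). PAPPA, the protease that cuts IGFBP4, stood at 2.11 and 2.21 FPKM in NC, 1.44 and 0.934 in si1 and 1.11 and 1.14 in si2. All 4 knockdown libraries lay below NC, with differences of -0.54 in si1 (limma adjusted p = 0.0459) and -0.57 in si2 (limma adjusted p = 0.0318). Its relative PAPPA2, which cuts IGFBP3 and IGFBP5, was lower in si1 (3.29 ± 0.341 FPKM in NC and 1.51 ± 0.193 in si1, SD, n = 2, difference -0.77) and at 3.49 ± 0.0296 in si2. STC2, whose product inhibits PAPPA, stood at 78.7 and 86.2 FPKM in NC, 35.0 and 28.99 in si1 and 44.3 and 49.3 in si2. It too was lower in both groups, by differences of -1.34 and -0.81 (limma adjusted p = 3.69e-04 and 0.0021). ADAM12, another protease of IGFBP3, was lower in both (differences -0.53 and -0.34). CTSD, a lysosomal protease gene and the 1 called higher in si1 and in si2, was named after its values were seen (165 ± 6.84 FPKM for NC, 265 ± 11.8 for si1 and 202 ± 4.17 for si2, SD, n = 2).

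Of 13 other genes whose products share the IGFBP amino-terminal domain, 7 were tested. Of these, 1 was called higher and 3 lower in si1, and 1 higher and 2 lower in si2. The called genes were 57.1% of the 7 in si1 and 42.9% in si2, beside 22.4% and 29% of all genes tested. CTGF (CCN2), a matrix protein, stood at 37.7 and 36.8 FPKM in NC, 13.2 and 15.1 in si1 and 106 and 102 in si2. As with IGFBP1, NC lay between si1 and si2 with no overlap, and the log2 differences from NC were -1.34 in si1 and 1.46 in si2 (limma adjusted p = 1.31e-04 and 1.11e-04). CYR61 (CCN1), of the same family, was lower in si1 (68.1 ± 0.346 FPKM in NC and 45.4 ± 2.08 in si1, SD, n = 2), and its si2 difference of -0.19 was not called. HTRA3, a secreted serine protease gene, was higher in si1 (0.34) and lower in si2 (-0.56). CRIM1 was lower in both (-0.43 and -0.66).

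Among 12 tested receptor adaptors and phosphatases, 2 were called higher and 3 lower in si1, and 3 higher and 1 lower in si2. These were 41.7% of them in si1 and 33.3% in si2, beside 22.4% and 29% of all genes tested. GRB2, which links receptors to RAS, averaged 37.5 ± 1.203 FPKM for NC, 19.5 ± 1.13 for si1 and 36.5 ± 0.918 for si2 (SD, n = 2), and the si1 difference was -0.91 (limma adjusted p = 3.48e-04). GRB10, an adaptor that restrains IGF1R and INSR signalling, averaged 16.1 ± 0.201 FPKM for NC, 16.2 ± 0.743 for si1 and 28.4 ± 0.693 for si2, a difference of 0.78 in si2 (limma adjusted p = 5.05e-04). SOCS2 (-0.60), a feedback inhibitor of growth hormone signalling, fell in si1, the phosphatase gene PTPN11 (0.50) rose in si2, and PTPN1 fell in both (-0.27 and -0.37). SH2B1 rose in si1 (0.48, limma adjusted p = 0.0495).

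In the PI3K-AKT branch, 4 of 23 tested genes were called in si1, all lower. In si2, 2 were called higher and 3 lower. These were 17.4% of the branch in si1 and 21.7% in si2, beside 22.4% and 29% of all genes tested. EIF4EBP1, a brake on translation that MTOR inactivates, averaged 61.7 ± 2.21 FPKM for NC, 27.8 ± 0.443 for si1 and 50.7 ± 0.593 for si2 (SD, n = 2), differences of -1.12 and -0.28 (limma adjusted p = 1.19e-04 and 0.0139). RICTOR, a subunit of MTOR complex 2, had opposite differences, -0.44 in si1 and 0.62 in si2 (limma adjusted p = 0.0166 and 0.00368). PDPK1, the kinase that activates AKT, was lower in si1 (-0.34), and AKT2 and PIK3R3 were lower in si2 (-0.55 and -0.58). Of the 3 IGF2 mRNA-binding proteins, IGF2BP1 (-0.61) and IGF2BP3 (-0.35) fell in si1, and IGF2BP3 rose in si2 (0.28). The called genes were 66.7% of the 3 in si1 and 33.3% in si2, beside the same 22.4% and 29% of all genes. Of 7 tested genes of receptor processing, 14.3% were called in si1 and 42.9% in si2, beside 22.4% and 29% of all genes. The 1 called in si1 was the ubiquitin ligase gene CBL, which fell (-0.57). In si2 FURIN, the convertase that cleaves the receptor precursors, and the ubiquitin ligase gene NEDD4 rose (0.39 and 0.28), and the convertase gene PCSK6 fell (-0.40, limma adjusted p = 0.0491). LRP1, an endocytic receptor reported to bind IGFBP3, fell in si2 (-0.46). Of 2 tested genes for other cell surface receptors of the system, LRP1 was the 1 called in si2, and 0 were called in si1.

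**Figure D4:**
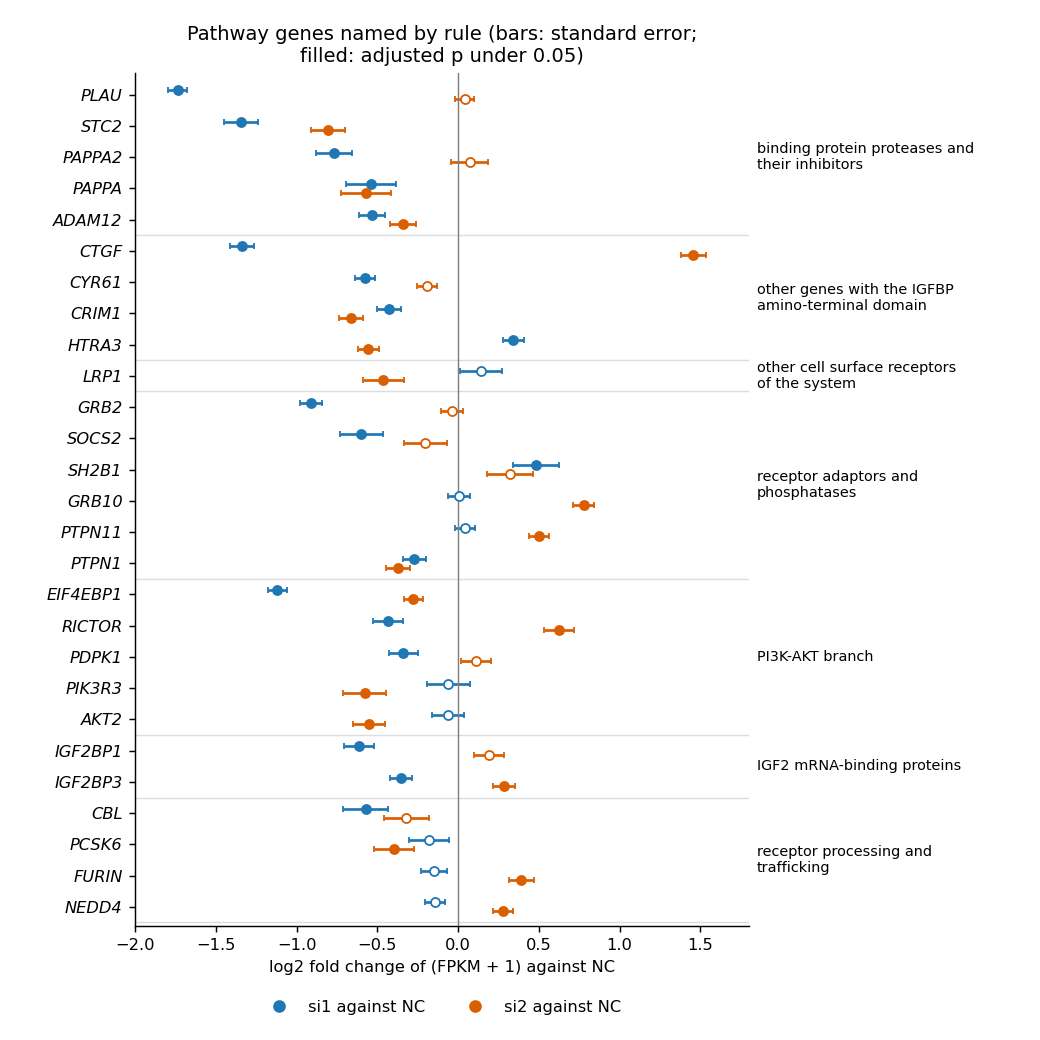
Log2 fold change of (FPKM + 1) against NC on the horizontal axis for the pathway genes named by rule, grouped by list. Points are limma estimates for si1 and si2, bars are standard errors, and filled points have an adjusted p under 0.05. CTGF (-1.34 and 1.46), RICTOR (-0.44 and 0.62) and HTRA3 (0.34 and -0.56) lie on opposite sides of 0.

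The 3 tested genes with the largest spread over the 6 libraries were IGFBP1, IGFBP3 and IGFBP4, with SDs of log2(FPKM + 1) of 1.13, 0.75 and 0.29. For each, the 3 other genes with the smallest Euclidean distance between centred profiles over the 6 libraries were sought. For IGFBP1 they were EREG, an EGF receptor ligand gene (distance 0.27), PTX3, a secreted pentraxin gene (0.41), and CTGF (0.44). EREG stood at 97.5 and 94.8 FPKM in NC, 36.6 and 40.0 in si1 and 238 and 231 in si2. For IGFBP3 they were FAM3C (0.29), a secreted protein gene, SLC37A2 (0.34), a sugar-phosphate transporter gene, and CXCL1 (0.37), a chemokine gene. FAM3C stood at 45.8 and 49.5 FPKM in NC, 60.0 and 62.1 in si1 and 130 and 124 in si2. For IGFBP4 they were ENAH, an actin regulator gene (0.05), and the zinc finger genes ZNF765 (0.08) and ZNF468 (0.09). ENAH stood at 15.2 and 15.6 FPKM in NC, 23.0 and 23.6 in si1 and 23.1 and 23.4 in si2. The 6 libraries form 3 groups of 2, so likeness over them rests on few independent points.

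**Figure D5:**
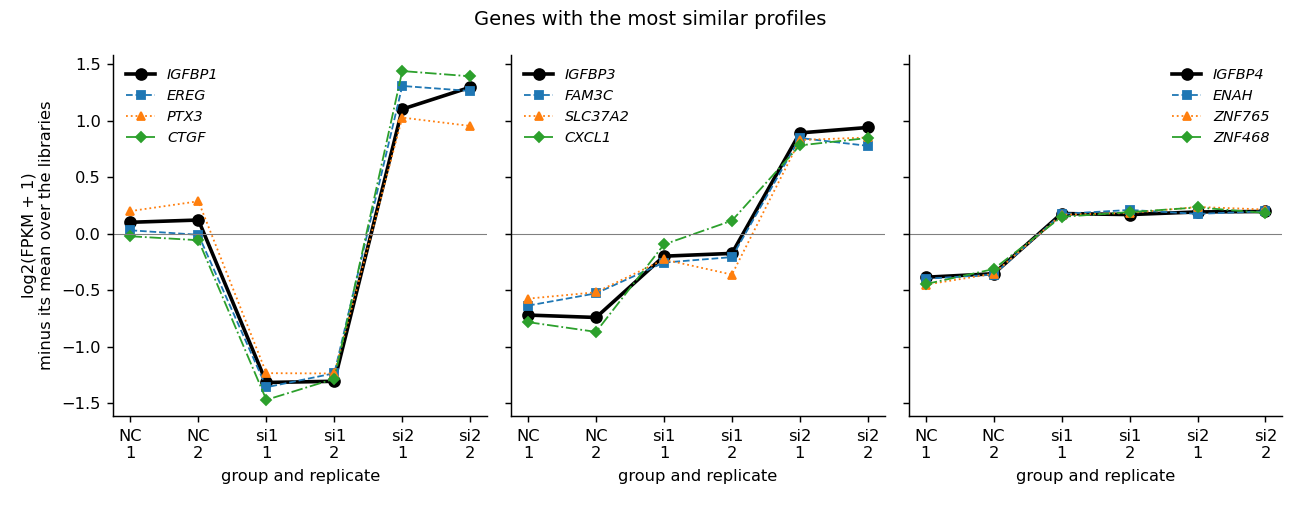
Log2(FPKM + 1) minus the gene's own mean over the 6 libraries (vertical axis) in each library (horizontal axis), for IGFBP1, IGFBP3 and IGFBP4 in black and the 3 nearest genes of each. Lines join the libraries of a gene and stand for no order. IGFBP1 and its neighbours are lowest in si1 and highest in si2, those of IGFBP3 are highest in si2, and those of IGFBP4 are higher in all 4 knockdown libraries than in NC.

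Short RNAs used for knockdown can also lower other mRNAs that match them over a few bases of the 3′ untranslated region. No reagent sequence is given in the sources used here. Over 10734 coding genes, each with its longest 3′ untranslated region, every 7-base sequence with at least 50 carriers was scored by a t statistic of log2 differences for carriers against other genes, with the length and GC content of the region in the model. Of the 16293 sequences scored, the lowest score fell to ACTCTCT in si1 and to GTCTGCA in si2. This search was made after values were seen and is given as a description. Each sequence was picked for the lowest score on these same differences, so lower values in its carriers follow from that choice. Carriers of ACTCTCT, 11.8% of those genes, had a median difference of -0.11 in si1 and the others 0.00. Carriers of GTCTGCA, 13.5%, had a median of -0.14 in si2 and the others 0.02. Carriers had longer regions, with a median of 3246 bases for ACTCTCT and 3063 for GTCTGCA beside 1651.5 over all these genes, and these medians, unlike the score, take no account of length. None of the 8 tested genes (0 of 8) carried ACTCTCT, IGFBP1 with its fall in si1 included. GTCTGCA was carried by 3 of the 8, IGFBP7, IGF2R and INSR, and the sites are shown with the 7 bases in capitals because IGFBP7 was the gene called lower in si2.

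IGFBP7: gaatattattaGTCTGCAtggttaaaagt

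IGF2R: aaaggcatgttGTCTGCAccactggctgc

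INSR: ctgacacaaggGTCTGCAtaggtcatcct

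The site begins at base 19 of 544 in the region of IGFBP7, at base 2260 of 6420 in that of IGF2R and at base 3714 of 4801 in that of INSR. Their si2 differences from NC were -0.33, 0.34 and -0.23, and of these only that of IGFBP7 was called. Whether a match to a reagent bears on any of these values was not tested.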

How the data were processed

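RNA from 6 SK-MES-1 libraries was measured, 2 each in NC, si1 and si2, grouped by the library names in the labels. The authors deposited FPKM for 58735 genes, using hg38, as the submitters' processing notes state. Which aligner, counting tool and annotation they used is not given in the sources used here. Starts and ends of all 58735 genes equalled those of GENCODE 29, and coordinates in the text are from it. Multiplying FPKM by gene length gave whole multiples of 1 step per library for 100% of values (tolerance 0.001 reads), and so the reads behind each value.

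The 12319 genes averaging 1 FPKM or more were tested as log2(FPKM + 1) with limma 3.58.1 in R 4.3.3, with trended variances, 1 coefficient per group, 3 residual and 4.03 prior degrees of freedom. Fold changes on this scale understate changes of low genes. Tests were two-sided, and p-values were Benjamini-Hochberg adjusted over all genes tested. Errors are the SD of 2 libraries or limma's standard error. The fit was also run on simulated reads. These had the same dispersion for every gene and few changed genes, unlike the data, so that run does not check the calls made here. The members, gene lists and naming rules were chosen with earlier results of these data known. The text names all 10 members and, from each pathway list, up to 3 called genes with the largest change in si1 and in si2. The symbol IGF2 stood on 2 rows, of which the one with the higher mean was used, the other being at 0 in every library. Alternatives changed the pseudocount (0.1), the low-value filter, the scaling, the replicate block, each library in turn, the scale (log2 of depth-scaled reads with 0.5 reads added) and the grouping of knockdown libraries.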

Additional observations from a re-analysis of the deposited data

Results flagged for a closer look

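The difference between si2 and si1, tested as a contrast of its own with limma over all 6 libraries, passed an adjusted p of 0.05 for 5 of the 8 tested genes. In log2(FPKM + 1), si2 minus si1, it was 2.51 for IGFBP1, where si1 lay below NC and si2 above. It was 1.10 for IGFBP3, where both groups lay above NC and si2 further. It was 0.35 for IGF1R, -0.26 for IGFBP6 and -0.25 for IGFBP7, and these 3 calls each depended on single libraries. Of all genes tested 38.5% passed in the same contrast. The labels do not say how si1 and si2 differ, and the cause of these differences was not tested.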

How the results depend on the processing

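The 8 tested genes in the 4 contrasts gave 360 alternative values, of which 325 kept their side of the threshold, 23 lost a call and 12 gained one. No called value changed sign (0 reversed). Of the 325, 319 kept their sign and 6 did not, none of them called: IGF1R in si1 went from -0.05 to 0.06, IGF2R in si1 from 0.18 to -0.02 and in si2 against si1 from 0.16 to -0.04, INSR in si1 from -0.11 to 0.02 (without either of 2 libraries) and IGFBP6 with both groups together from 0.03 to -0.002, each without 1 library. The calls of IGFBP1, IGFBP3 and IGFBP4 in si1 and in si2 against NC held in all 11 alternatives. Leaving out each library in turn, the number of the 8 genes called in si2 against si1 (5 in the report) ranged from 2 to 5. The number of pathway genes called ranged from 11 to 23 in si1 against NC, 7 to 28 in si2 against NC, and 6 to 20 with si1 and si2 together (16 in the report). The share of all genes called changed in each of these fits as well, so the ranges are not particular to these genes. A group left with 1 library was assumed to vary like the others. With no filter on low values, more genes were adjusted for, and the calls were 2 of the members in si2 against si1 and 15 and 12 pathway genes in si1 and in si2 against NC, beside 10.6%, 4.78% and 6.04% of all genes. With the 4 knockdown libraries as 1 group, limma called 1 member and 0 pathway genes, where 0.682% of all genes were called. At an unadjusted limma p under 0.05, 2 members and 12 pathway genes passed. The share of all genes at that threshold was not computed, so nothing is read from these 2 counts. On the scale of depth-scaled reads, 25 pathway genes were called with si1 and si2 together, where the share over all genes rose from 20.5% to 27.9%. Size factors by the median of ratios were 1.011 in every library, so that scaling left the values nearly as deposited. Replicate numbers did not pair the samples, since deviations of same-numbered libraries correlated at -0.052, 0.0503 and -0.0577. With the replicate block the members called were 3 in si1, 4 in si2, 2 together and 5 in si2 against si1, the lost one being IGFBP7 (-0.21). Pathway calls were 18, 19, 14 and 28, and 19%, 25.3%, 16.7% and 35% of all genes were called in the same order. Depth limits IGFBP2, IGFBP5 and the ligands, which had too few reads to compare.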

Other observations

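The RefSeq promoter window of IGF2R (GRCh38.p14, chr6:159968832-159969131, plus strand) holds the E-box CACGTG 3 times, beginning 132, 74 and 28 bases before the start, shown in capitals. Of all 35116 windows, searched over their whole length, 7.26% hold this palindrome at least once and 0.0940% hold it 3 times or more.

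IGF2R: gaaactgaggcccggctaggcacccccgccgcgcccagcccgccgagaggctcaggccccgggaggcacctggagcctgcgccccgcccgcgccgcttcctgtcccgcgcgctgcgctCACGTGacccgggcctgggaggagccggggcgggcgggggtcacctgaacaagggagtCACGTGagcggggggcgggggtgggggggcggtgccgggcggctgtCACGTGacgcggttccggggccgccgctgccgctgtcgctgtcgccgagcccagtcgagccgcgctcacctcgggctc

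IGF2R was higher in si2 than in NC by 0.34 (limma adjusted p = 0.0761) and was not called. It was called on the scale of depth-scaled reads and without si1 replicate 1 or si1 replicate 2. Leaving out an si1 library kept the difference at 0.34 and changed only the estimate of the spread. Whether the sequence bears on the level of IGF2R was not tested. The gene was singled out after its sequence and values were seen.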
